A study of Mus musculus with 2 samples.

Results

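The 10 genes described here stand at the entry to the cell cycle. They are the D cyclins Ccnd1, Ccnd2 and Ccnd3, their kinases Cdk4 and Cdk6, the inhibitors Cdkn1a, Cdkn1b, Cdkn2c and Cdkn2d, and the retinoblastoma gene Rb1. They were taken by symbol, by matching each Ensembl gene identifier, with its version removed, to these names, and no measured value entered the rule. They are 10 of the 43346 mouse genes in the gene tables, of which 42462 matched a name, and they hold 49 annotated transcripts. The series is 1 group of ovary tissue from adult C57BL/6J females, littermates aged 8 weeks, measured as 2 libraries called replicate 2 and replicate 1. The labels name no treatment and no allele beyond the strain. Each library was made from polyadenylated RNA over 200 nucleotides long after removal of ribosomal RNA, and was stranded and read for 76 bases from both ends. The labels number the libraries as biological replicates, but give both the same donor record and do not say whether animals were pooled. The p-values and spread therefore describe these libraries and may be technical. The tissue is labelled ovary, and markers of oviduct and fat were also found in it, as given below. For every gene, therefore, fewer cells of a type and less RNA per cell cannot be told apart.

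A D cyclin binds CDK4 or CDK6, and the active pair phosphorylates the retinoblastoma protein and its relatives, which releases E2F factors to switch on genes of DNA synthesis. The INK4 inhibitors, here p18 (Cdkn2c) and p19 (Cdkn2d), bind the kinases themselves, whereas p21 (Cdkn1a) and p27 (Cdkn1b) bind complexes of cyclin and kinase. In the mouse ovary, cyclin D2 is needed for granulosa cells to multiply in response to follicle-stimulating hormone, and p27 helps granulosa cells leave the cycle as they become luteal cells.

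A pair of sequence sets bears on the transcript results. The first is the alternative splice of Cdk4, shown because the share of the form that skips an exon was unequal in the libraries. All lie on the plus strand of chromosome 10 of mm10 and were read with the GENCODE M21 models. In the joins, lower case marks the end of exon 2 and capitals mark the start of the exon joined to it. The skipped exon 3, at chr10:127064585-127064720, is in lower case throughout.
Cdk4-201, exon 2 to exon 3: caatgttgtacgGCTGATGGATGT
Cdk4-208, exon 2 to exon 4: caatgttgtacgGATCTAATGCGT
Cdk4 exon 3, left out of Cdk4-208: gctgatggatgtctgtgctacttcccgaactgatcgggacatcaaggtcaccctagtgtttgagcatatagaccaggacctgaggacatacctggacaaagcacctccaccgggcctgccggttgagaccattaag

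The second set holds the promoter windows of Cdkn1a and of Ccnd3, shown because each gene has more than 1 group of annotated starts. Each window runs from 250 bases before a RefSeq start to 50 bases after it (GRCm38.p6), on the plus strand. Capitals mark CCAAT and also GGGCGG or its complement, and a pair of CATG with the 6 bases between them.
Cdkn1a, upstream start, chr17:29090729-29091028: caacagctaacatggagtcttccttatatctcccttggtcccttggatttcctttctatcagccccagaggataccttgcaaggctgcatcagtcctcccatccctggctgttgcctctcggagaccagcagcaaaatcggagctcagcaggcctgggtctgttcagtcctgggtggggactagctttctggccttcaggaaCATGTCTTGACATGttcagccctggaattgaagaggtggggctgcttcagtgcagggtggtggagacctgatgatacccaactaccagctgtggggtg
Cdkn1a, downstream start, chr17:29093519-29093818: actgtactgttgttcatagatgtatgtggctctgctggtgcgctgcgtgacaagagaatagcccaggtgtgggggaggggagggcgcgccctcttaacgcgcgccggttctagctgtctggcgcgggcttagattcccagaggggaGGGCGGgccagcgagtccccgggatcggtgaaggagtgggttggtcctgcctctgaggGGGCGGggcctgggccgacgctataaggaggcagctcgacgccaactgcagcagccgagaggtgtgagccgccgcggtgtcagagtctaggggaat
Ccnd3, upstream start, chr17:47504801-47505100: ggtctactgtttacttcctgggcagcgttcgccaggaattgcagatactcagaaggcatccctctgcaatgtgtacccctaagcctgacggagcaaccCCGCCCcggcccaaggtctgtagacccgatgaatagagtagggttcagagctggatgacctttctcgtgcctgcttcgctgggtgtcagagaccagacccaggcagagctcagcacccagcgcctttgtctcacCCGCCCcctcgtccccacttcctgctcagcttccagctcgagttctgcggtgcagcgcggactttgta
Ccnd3, downstream start, chr17:47593217-47593516: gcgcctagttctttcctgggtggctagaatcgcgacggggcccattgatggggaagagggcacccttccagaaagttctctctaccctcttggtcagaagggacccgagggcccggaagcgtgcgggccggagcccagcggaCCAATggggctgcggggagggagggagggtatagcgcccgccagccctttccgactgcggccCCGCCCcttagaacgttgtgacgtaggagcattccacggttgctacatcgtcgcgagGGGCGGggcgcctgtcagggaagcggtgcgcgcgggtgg

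RefSeq windows were matched for 7 of the 10 genes, giving 10 windows. Ccnd1, Ccnd2 and Rb1 had no matched entry. The median GC content of the windows was 65.5%, in a range of 44.0% to 73.3%, beside a median of 52.7% over all 32851 mouse windows. GGGCGG, the core of the GC box, was found in 7 of the 10 windows and in 35.7% of all windows. CACGTG, the E-box letters that MYC and its partners bind, was found in 3 of 10 windows and in 7.15% of all, with 4 copies in the window of Cdk4. CCAAT was found in 4 of 10 windows and in 37.4% of all, and TATAAA in 1 of 10 and in 13.6% of all. CATG followed by any 6 bases and another CATG was found in 1 of 10 windows, the upstream window of Cdkn1a, beginning at position -48 from the start, and in 0.712% of all windows. Paired CATG cores occur in many p53 sites, and each match here is a description of letters only. Motifs were searched on both strands, with overlapping copies counted separately.

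Replicate 2 held 34930872 gene counts and replicate 1 held 41124064. A gene at 0 would allow 3 counts, which is 0.0859 CPM (counts scaled to the library total) in replicate 2 and 0.0729 in replicate 1, for counting error only. The levels are TPM, the authors' length-corrected share of all transcripts. All 21 marker genes looked up were present in the data, of which 9 were higher in replicate 2, 10 were lower and 2 did not pass the test described below. Of all genes tested, 29.1% were higher and 27% lower. The test passes small differences where counts are high, such as Inha at a log2 ratio of -0.18. Granulosa markers summed to 6684 TPM in replicate 2 and 7767 TPM in replicate 1. Nearly all of that was Inha, at 6279 TPM in replicate 2 and 7396 TPM in replicate 1, and of the 4 markers 2 were higher and 2 lower in replicate 2. Oocyte markers summed to 235 TPM in replicate 2 and 293 TPM in replicate 1, and theca markers to 781 TPM in replicate 2 and 930 TPM in replicate 1. Of other cells, fat markers summed to 3122 TPM in replicate 2 and 2370 TPM in replicate 1, and globins to 1274 TPM in replicate 2 and 532 TPM in replicate 1. Sums for oviduct, smooth muscle, macrophage and endothelium were 665, 2391, 202 and 73.3 TPM in replicate 2, against 739, 2760, 243 and 81.4 TPM in replicate 1. The part of cell content in the differences between the libraries was not tested.

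All 10 genes reached a TPM of 1 in both libraries, as did 13312 of the 21474 protein-coding genes (62.0%). By mean TPM, Cdk4 stood first, followed by Ccnd3, Cdkn1a, Ccnd1, Ccnd2, Cdkn1b, Cdkn2d, Cdkn2c, Cdk6 and Rb1. Among neighbours in this order, the ranges of the 2 libraries overlapped for Cdkn1a with Ccnd1 and for Ccnd1 with Ccnd2 only. In replicate 1 alone, Ccnd2 had rank 3, ahead of Cdkn1a and Ccnd1. With 2 libraries no permutation test of a single gene can reach 0.05.

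**Figure D1:**
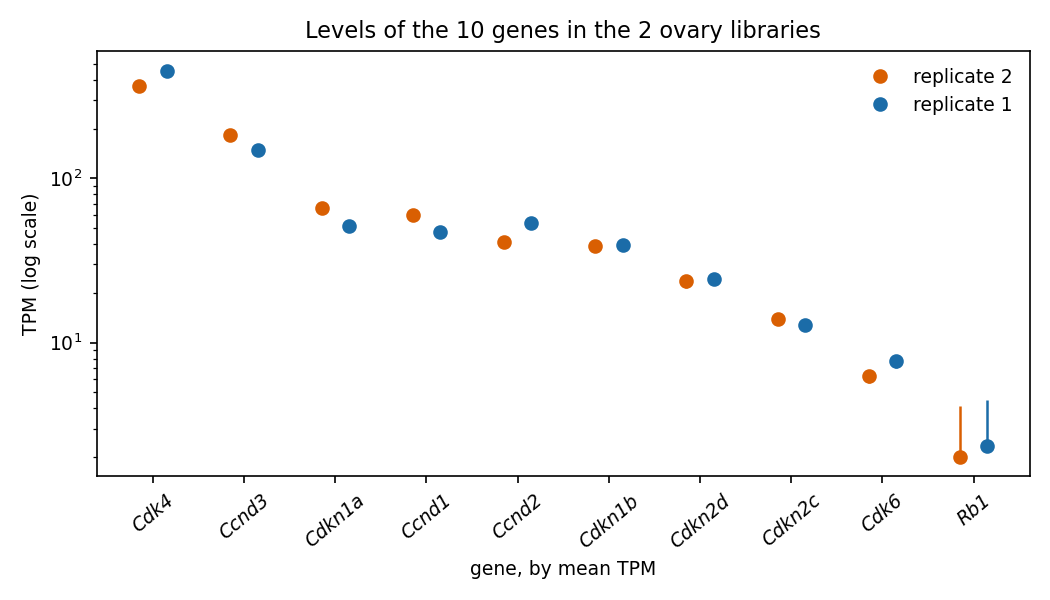
TPM (log scale) of each of the 10 genes in replicate 2 (orange) and replicate 1 (blue), ordered by mean TPM. Bars, mostly hidden by the points, are the interval bounds deposited with the posterior mean TPM, whose level is not stated, so those of Rb1 lie above its points. Levels span from Cdk4, at 363.65 TPM in replicate 2 and 448.02 TPM in replicate 1, down to Rb1, at 2.01 TPM in replicate 2 and 2.36 TPM in replicate 1.

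Between the libraries, 7 of the 10 genes passed a two-sided exact binomial test on the counts, 4 higher and 3 lower in replicate 2. The p-values were adjusted by Benjamini-Hochberg over 15939 genes, those averaging 20 or more counts, and the test sets the reads of 1 library against the other and says nothing of conditions. Of all genes tested 56.1% passed, 29.1% higher and 27% lower, so the count over the 10 genes lay near the background. None of the 10 differed by over 2-fold, against 3.99% of all genes. Their median log2 ratio of replicate 2 over replicate 1 was 0.02 beside -0.01 for all genes, and the median size of the ratio was 0.22 beside 0.23.

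Directions depended on the scale. Ratios were scaled by TMM, which sets most genes near no difference. Scaled instead to the spike-ins, which took 0.986% of the counts in replicate 2 and 0.764% in replicate 1, the median of all genes moved by -0.433 on the log2 scale. The 10 genes then gave 0 higher and 8 lower calls, beside 1142 higher and 11431 lower over all genes. Ccnd1, Cdkn1a and Cdkn2c, all higher under TMM, turned to log2 ratios of -0.06, -0.08 and -0.26. Cdkn1b, Cdkn2d and Rb1, which did not pass under TMM, passed as lower there, so 9 of the 10 ratios lay below 0. Scaled to the total count, 3 of the 10 were higher and 3 lower, beside 3761 higher and 5515 lower over all genes. Directions given below are those under TMM, relative to the median gene.

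**Figure D2:**
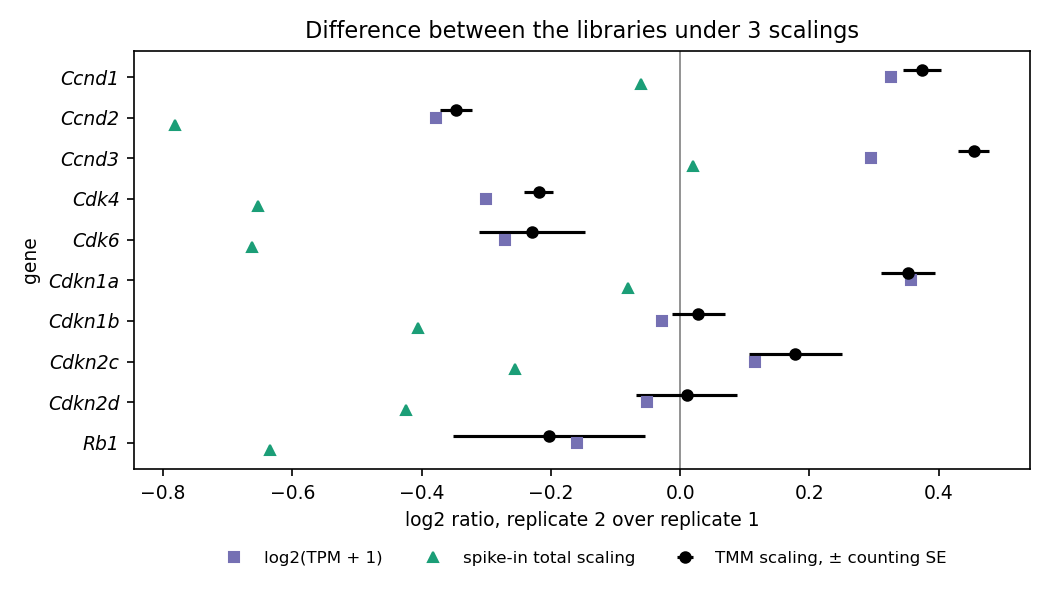
Log2 ratio of replicate 2 over replicate 1 for each gene under TMM scaling with its counting SE (black), as log2(TPM + 1) (purple) and scaled to the spike-in total (green). Under TMM the ratios run from -0.35 for Ccnd2 to 0.45 for Ccnd3, and on the spike-in scale each lies lower, with 9 of the 10 below 0 and Ccnd3 at 0.02.

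By TPM, Ccnd3 supplied most of the D cyclin RNA in both libraries. Ccnd3 (chromosome 17, 47505051 to 47599691, plus strand of mm10), a D cyclin expressed in many tissues, stood at 183.62 TPM in replicate 2 and 149.37 TPM in replicate 1. It made up 64.6% of the summed D cyclin TPM in replicate 2 and 59.7% in replicate 1. It was higher in replicate 2, with a log2 ratio of 0.45 and a counting SE of 0.02 (exact binomial test, Benjamini-Hochberg adjusted p = 3.19e-79), a ratio that was 0.02 on the spike-in scale. Its mean was 166 ± 24.2 TPM (SD, n = 2). On counts, which are not corrected for length, Ccnd3 stood above Ccnd2 in replicate 2 (7698 against 5530) and below it in replicate 1 (6913 against 8657).

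Ccnd1 and Ccnd2 changed places between the libraries. Ccnd1 (chromosome 7, 144929931 to 144939925, minus strand), the cyclin best known for coupling growth factor signals to the cycle, stood at 59.54 TPM in replicate 2 and 47.30 TPM in replicate 1. Ccnd2 (chromosome 6, 127125162 to 127152193, minus strand), the granulosa cell cyclin, stood at 40.94 TPM in replicate 2 and 53.52 TPM in replicate 1. Ccnd1 was thus 1.45 times Ccnd2 in replicate 2 and 0.884 times Ccnd2 in replicate 1, the only neighbours in the order of levels to swap. The log2 ratio of Ccnd1 was 0.37 (SE 0.03, exact binomial test with Benjamini-Hochberg adjusted p = 1.37e-37) and that of Ccnd2 was -0.35 (SE 0.02, adjusted p = 6.34e-44). Means were 53.4 ± 8.655 TPM for Ccnd1 and 47.2 ± 8.895 TPM for Ccnd2 (SD, n = 2 each), so the pair did not differ beyond its spread. Of the 4 granulosa markers, Inha and Fshr were, like Ccnd2, lower in replicate 2, and Amh and Foxl2 were higher.

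By TPM, Cdk4 was the most abundant of the 10 and far exceeded Cdk6. Cdk4 (chromosome 10, 127063534 to 127067920, plus strand), the kinase partner of the D cyclins in most tissues, stood at 363.65 TPM in replicate 2 and 448.02 TPM in replicate 1, and its mean of 406 ± 59.7 TPM (SD, n = 2) lay at percentile 98.6 of protein-coding genes. Cdk6 (chromosome 5, 3341485 to 3531008, plus strand), a related kinase prominent in blood cells, stood at 6.27 TPM in replicate 2 and 7.77 TPM in replicate 1. Both were lower in replicate 2. The log2 ratio was -0.22 for Cdk4 (SE 0.02, exact binomial test with Benjamini-Hochberg adjusted p = 9.27e-22) and -0.23 for Cdk6 (SE 0.08, adjusted p = 0.0112). Cdk4 was 98.3% of the summed TPM of the pair in each library, or 58.0 times Cdk6 in replicate 2 and 57.7 times in replicate 1.

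The annotation bears on both kinase levels. The leading transcript Cdk6-202 has 3735 bases in the annotation of the files, beside 11525 in GENCODE M21, and TPM divides by length. For Cdk4 the mean length over transcripts was 988 bases in replicate 2 and 985 in replicate 1, beside 2053 in the complete form Cdk4-201. On counts, Cdk4 stood below Ccnd3 in replicate 2 (6999 against 7698) and above it in replicate 1 (10027 against 6913). Cdk4 overlaps Tspan31, a gene on the other strand, by 641 bases. Tspan31 stood at 70.23 TPM in replicate 2 and 88.03 TPM in replicate 1, and the sources do not say whether counting used strand. Expected counts of both genes were whole numbers in each library, and the posterior SD of the Cdk4 count was 0. No division of reads between Cdk4 and Tspan31 thus showed in the counts.

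Of the CIP/KIP inhibitors, p21 RNA was higher in replicate 2 and p27 RNA did not pass the test under TMM. Cdkn1a (chromosome 17, 29090976 to 29100727, plus strand), which encodes p21 and is a target gene of p53, stood at 66.12 TPM in replicate 2 and 51.40 TPM in replicate 1. Cdkn1b (chromosome 6, 134920401 to 134925513, plus strand), which encodes p27, stood at 38.57 TPM in replicate 2 and 39.35 TPM in replicate 1. In TPM the libraries lay apart for Cdkn1a and close together for Cdkn1b. The log2 ratio of Cdkn1a was 0.35 (SE 0.04, exact binomial test with Benjamini-Hochberg adjusted p = 6.56e-16) and that of Cdkn1b was 0.03 (SE 0.04, adjusted p = 0.589). On the spike-in scale the contrast turned round, with Cdkn1a at -0.08 (exact binomial adjusted p = 0.0714) and Cdkn1b at -0.41 (adjusted p = 1.4e-22). Means were 58.8 ± 10.4 TPM for Cdkn1a and 39.0 ± 0.552 TPM for Cdkn1b (SD, n = 2 each), and Cdkn1a was 1.71 times Cdkn1b in replicate 2 and 1.31 times in replicate 1.

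Cdkn2d and Cdkn2c, the INK4 inhibitors among the 10 genes, were less abundant than Cdkn1a and Cdkn1b. The INK4 gene Cdkn2b, read with the wider pathway below, had a mean of 48.5 TPM. Cdkn2d (chromosome 9, 21288410 to 21291407, minus strand), encoding p19, stood at 23.59 TPM in replicate 2 and 24.48 TPM in replicate 1. Cdkn2c (chromosome 4, 109660876 to 109667189, minus strand), encoding p18, stood at 13.92 TPM in replicate 2 and 12.77 TPM in replicate 1. Cdkn2d was the higher of the pair in each library, by 1.69 times in replicate 2 and 1.92 times in replicate 1. The log2 ratio was 0.01 for Cdkn2d (SE 0.08, exact binomial test with Benjamini-Hochberg adjusted p = 0.944) and 0.18 for Cdkn2c (SE 0.07, adjusted p = 0.0276). Scaled to the total count, Cdkn2c had a log2 ratio of 0.11 and no longer passed (exact binomial adjusted p = 0.173). On the spike-in scale Cdkn2d turned to -0.42 and passed as lower (exact binomial adjusted p = 1.24e-07), and Cdkn2c stood at -0.26 (adjusted p = 0.000622). Means were 24.0 ± 0.629 TPM for Cdkn2d and 13.3 ± 0.813 TPM for Cdkn2c (SD, n = 2 each).

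Rb1 (chromosome 14, 73183673 to 73325822, minus strand), whose protein is the classic substrate of CDK4 and CDK6, was the lowest of the 10. It stood at 2.01 TPM on 163 counts in replicate 2 and at 2.36 TPM on 231 counts in replicate 1. The log2 ratio was -0.20 (SE 0.15, exact binomial test with Benjamini-Hochberg adjusted p = 0.244), and on the spike-in scale it was -0.64 and passed (adjusted p = 2.35e-05). The deposited posterior mean TPM of Rb1 was 3.04 in replicate 2 and 3.35 in replicate 1, above its TPM in both. On the other strand Rb1 overlaps Rcbtb2 by 24171 bases, at 37.33 TPM in replicate 2 and 42.72 TPM in replicate 1, and Lpar6 by 5400 bases, at 2.15 TPM in replicate 2 and 1.73 TPM in replicate 1.

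Set against each other by role, the D cyclins summed to 284.1 TPM in replicate 2 and 250.2 TPM in replicate 1, and the kinases to 369.9 TPM in replicate 2 and 455.8 TPM in replicate 1. The ratio of D cyclin to kinase RNA was 0.768 in replicate 2 and 0.549 in replicate 1. The kinase sum holds retained-intron and decay forms of Cdk4. Counting protein-coding transcripts only, the ratio was 1.75 in replicate 2 and 0.863 in replicate 1. The coding kinase sum was then 160.96 TPM in replicate 2 and 288.27 TPM in replicate 1. Of it, Cdk4-205 made up 124.87 TPM in replicate 2 and 244.15 TPM in replicate 1. The 3' end of that model is incomplete in the annotation, and its share differed between the libraries, as given below. Cdkn1a and Cdkn1b together came to 0.368 of the D cyclin sum in replicate 2 and 0.363 in replicate 1, which hardly differed. Cdkn2c and Cdkn2d together came to 0.101 of the kinase sum in replicate 2 and 0.0817 in replicate 1, or 0.233 in replicate 2 and 0.129 in replicate 1 over protein-coding transcripts only. The INK4 gene Cdkn2b is not in these sums. All the ratios are of RNA, and protein was not measured.

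The same transcript led in both libraries for all 10 genes, by the authors' percent of gene TPM. Ccnd2 and Cdkn2d have 1 annotated transcript each, and Ccnd1-201 held 100% of its gene in both. Ccnd3-205 held 92.68% in replicate 2 and 85.80% in replicate 1, Cdkn1b-201 held 91.16% in replicate 2 and 91.94% in replicate 1, and Cdkn2c-202 held 97.33% in replicate 2 and 96.79% in replicate 1. Cdk6-202 held 89.74% in replicate 2 and 82.89% in replicate 1, with Cdk6-201 holding the rest. Cdkn1a-201 held 77.11% in replicate 2 and 82.89% in replicate 1. Rb1-201, the coding form of 27 exons, held 69.11% in replicate 2 and 70.03% in replicate 1. The rest of Rb1 was Rb1-204, a retained-intron form with 11.29 counts in replicate 2 and 15 counts in replicate 1. The Rb1 shares depended on the measure: Rb1-201 held 93.07% of counts in replicate 2 and 93.51% in replicate 1, but 45.25% of the posterior mean TPM in replicate 2 and 48.79% in replicate 1.

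Transcripts of Cdk4 were divided unequally between the libraries. Cdk4-208, which skips the exon 3 printed above and is annotated as subject to nonsense-mediated decay, took 29.69% of Cdk4 TPM in replicate 2 and 8.69% in replicate 1, on 1907.7 counts in replicate 2 and 801.72 counts in replicate 1. Its level was 107.96 TPM in replicate 2, with deposited bounds of 98.64 and 113.7, and 38.95 TPM in replicate 1, with bounds of 31.53 and 44.68. These intervals do not overlap, and they cover uncertainty within each library, not the spread between animals. The skipped exon has 136 bases, which is not a multiple of 3, and the annotated reading frame of Cdk4-208 has 74 codons beside 303 in Cdk4-201.

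The difference was offset in another Cdk4 form. Cdk4-205, a coding model whose 3' end is incomplete in the annotation, held 34.34% in replicate 2 and 54.50% in replicate 1. Cdk4-205 and Cdk4-208 together held 64.03% in replicate 2 and 63.19% in replicate 1, nearly the same. Cdk4-201, the complete coding form of 8 exons, held 7.27% in replicate 2 and 7.32% in replicate 1, and retained-intron forms held 27.77% in replicate 2 and 28.70% in replicate 1. Coding forms together held 42.54% in replicate 2 and 62.61% in replicate 1. Reads over the joins were not counted here, so the shares rest on the authors' assignment of reads to these models.

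**Figure D3:**
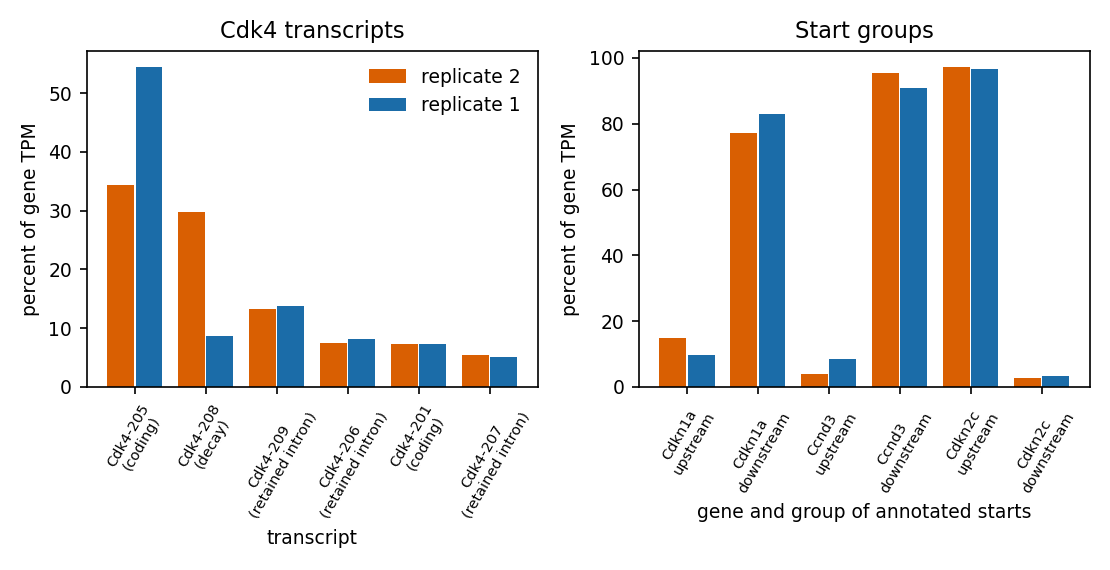
Percent of gene TPM in replicate 2 (orange) and replicate 1 (blue) for the 6 leading Cdk4 transcripts (left) and for groups of annotated starts of Cdkn1a, Ccnd3 and Cdkn2c (right). Cdk4-205 is lower and Cdk4-208 higher in replicate 2 while the other Cdk4 forms lie close, and 1 start group holds at least 77.11% of each other gene.

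Start groups, made of transcripts whose annotated start lies within 1000 bases of a RefSeq start, were uneven in the 3 genes that have more than 1. For Cdkn1a the downstream start, whose window holds 2 GGGCGG, held 77.11% of TPM in replicate 2 and 82.89% in replicate 1. The upstream start, 2790 bases away and with the CATG pair in its window, held 14.75% on 130.17 counts in replicate 2 and 9.60% on 75.91 counts in replicate 1. As a share of the gene's counts it was 5.53% in replicate 2 and 3.35% in replicate 1, higher in replicate 2 by either measure. Its deposited bounds, 6.041 to 14.29 TPM in replicate 2 and 2.452 to 7.725 TPM in replicate 1, overlap.

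For Ccnd3 the downstream start, 88416 bases from the upstream one, held 95.45% of TPM in replicate 2 and 91.01% in replicate 1. The upstream group of 13 transcripts held 3.94% of TPM in replicate 2 and 8.34% in replicate 1, but 1.74% of counts in replicate 2 and 1.73% in replicate 1. The libraries therefore differed in TPM and not in counts. One of these forms, Ccnd3-213, has 277 bases and carried 3.24 counts in replicate 2 and 11.87 counts in replicate 1. The mean fragment length, taken from the deposited lengths, was 206.1 bases in replicate 2 and 228.4 bases in replicate 1. Its part in the TPM of such short forms was not tested. For Cdkn2c the upstream start held 97.33% in replicate 2 and 96.79% in replicate 1.

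The wider pathway was read from a list of 45 genes, of which 44 were tested. Of these, 13 were higher in replicate 2, 18 were lower and 13 did not pass, and the median log2 ratio was -0.17 beside -0.01 for all genes. Over all genes tested, 29.1% were higher and 27% lower. On the spike-in scale 2 of the list were higher and 36 lower, beside 7.16% higher and 71.7% lower over all genes. The other CDK inhibitors were higher in 3 of 3 cases under TMM, and in 1 on the spike-in scale. Cdkn2b, encoding p15, an INK4 inhibitor induced by TGF-beta, was the only gene of the list over 2-fold apart, at 67.74 TPM in replicate 2 and 29.21 TPM in replicate 1. Its log2 ratio was 1.27 (exact binomial test, Benjamini-Hochberg adjusted p = 3.77e-121), and 0.84 on the spike-in scale. In both libraries its level lay above those of Cdkn2c and Cdkn2d. Cdkn1c, encoding p57, stood at 33.42 TPM in replicate 2 and 25.20 TPM in replicate 1.

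Both relatives of Rb1 exceeded it in each library. Rbl2, encoding p130, the family member that dominates in resting cells, stood at 19.26 TPM in replicate 2 and 17.04 TPM in replicate 1, which is 9.58 times Rb1 in replicate 2 and 7.22 times in replicate 1. Rbl1, encoding p107, stood at 5.53 TPM in replicate 2 and 4.14 TPM in replicate 1. Both were higher in replicate 2, with log2 ratios of 0.25 for Rbl2 and 0.28 for Rbl1, which turned to -0.18 and -0.15 on the spike-in scale.

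E2F and DP factors were split, with 2 higher in replicate 2, 5 lower and 3 that did not pass, and 1 higher and 8 lower on the spike-in scale. E2f4, the repressive E2F that pairs with p130, stood at 149.27 TPM in replicate 2 and 159.61 TPM in replicate 1 and did not pass, and its partner Tfdp1 was lower, at 41.97 TPM in replicate 2 and 50.69 TPM in replicate 1. The DREAM complex silences cell cycle genes in resting cells, and its core also works with the activator Mybl2. Its list had 4 of 6 genes lower and 0 higher, and 6 of 6 lower on the spike-in scale. Over all genes tested, 27% were lower and 29.1% higher, and 71.7% were lower on the spike-in scale. The DREAM list held only core genes and Mybl2, so it does not stand for the whole complex. The RB relatives and the E2F and DP factors were counted apart. Of these, Rbl2 and Rbl1 had log2 ratios of 0.25 and 0.28 under TMM, and the E2F and DP factors were split. Of the DREAM list, Lin37 stood at 36.83 TPM in replicate 2 and 48.26 TPM in replicate 1. The histone-binding subunit Rbbp4 stood at 15.75 TPM in replicate 2 and 20.80 TPM in replicate 1.

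Genes that act on p21, p27 and the D cyclins went both ways under TMM only. Trp53, encoding p53, was lower, at 138.48 TPM in replicate 2 and 188.23 TPM in replicate 1, whereas its target Cdkn1a was higher. Foxo1, a factor that induces Cdkn1b, was higher, at 122.90 TPM in replicate 2 and 97.59 TPM in replicate 1, and its log2 ratio was -0.06 on the spike-in scale. Upstream of p21 and p27, 3 of 5 genes were higher and 1 lower under TMM, and 0 higher and 5 lower on the spike-in scale. Of 7 turnover genes 1 was higher and 4 were lower under TMM, and 0 higher and 6 lower on the spike-in scale. They include Cks1b, a cofactor of p27 breakdown, at 38.37 TPM in replicate 2 and 56.46 TPM in replicate 1, and Ambra1, an adaptor of D cyclin breakdown, at 24.89 TPM in replicate 2 and 27.49 TPM in replicate 1. Of the CDK-activating kinase, Ccnh was higher under TMM, at 18.13 TPM in replicate 2 and 9.60 TPM in replicate 1. Its log2 ratio of scaled counts was 0.64, smaller than the gap in TPM. On the spike-in scale the ratio of Ccnh was 0.21 and did not pass. Cdk7 was lower, at 6.16 TPM in replicate 2 and 7.50 TPM in replicate 1, with a log2 ratio of -0.68 on the spike-in scale.

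Downstream, Cdk2 was lower, at 14.28 TPM in replicate 2 and 17.15 TPM in replicate 1. Its partner Ccne1 did not pass, at 13.33 TPM in replicate 2 and 8.08 TPM in replicate 1, a gap in TPM that the scaled counts, with a log2 ratio of 0.05, did not show. Ccne2, named because it was the gene left untested, had 4 counts in replicate 2 and 6 counts in replicate 1. Among 5 later cell cycle genes 1 was higher and 2 were lower, and 5 were lower on the spike-in scale. Ccna2, the cyclin of DNA synthesis, was higher, at 90.67 TPM in replicate 2 and 62.91 TPM in replicate 1. Its log2 ratio of scaled counts was 0.20 under TMM, smaller than the gap in TPM, and -0.23 on the spike-in scale. The mitotic kinase Cdk1 was lower, at 36.40 TPM in replicate 2 and 54.30 TPM in replicate 1.

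**Figure D4:**
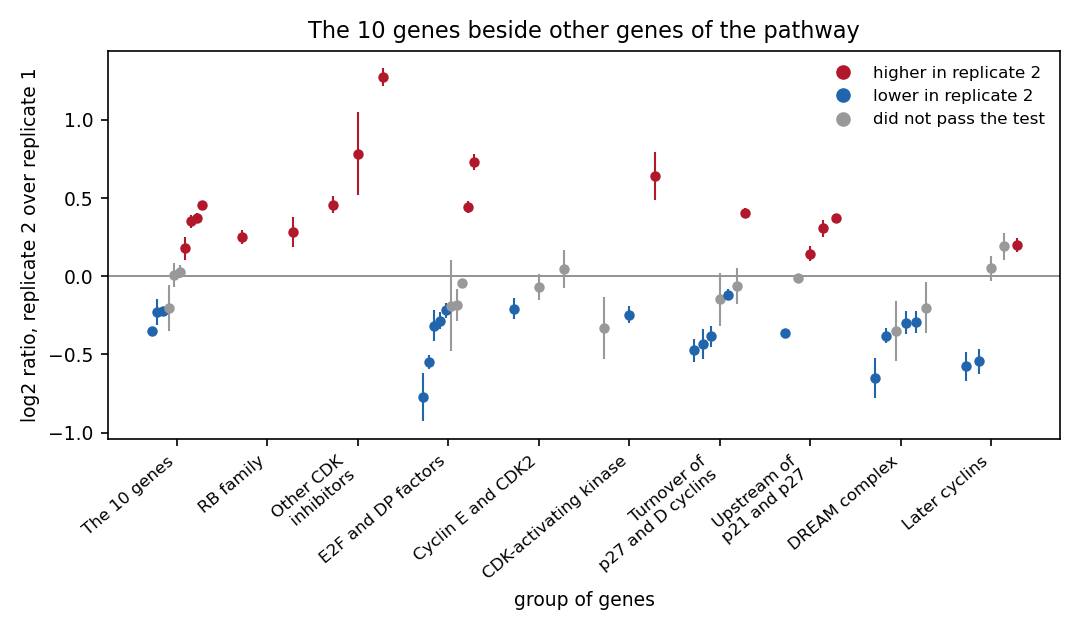
Log2 ratio of replicate 2 over replicate 1 (TMM scaling, bars are counting SE) for the 10 genes and the 44 tested pathway genes, grouped by role. Red, blue and grey mark genes that were higher, lower or did not pass the exact binomial test, and Cdkn2b stands highest at 1.27.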

How the data were processed

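Per the labels, ovary RNA was sequenced as 2 libraries of 1 group. The authors deposited expected counts, estimated fragments per gene or transcript, on mm10 with GENCODE M4, per the file headers and notes. They also deposited TPM, and, as a percent, each transcript's part of its gene's TPM. The deposited interval bounds of TPM are a signal whose level is not stated, and the deposited posterior SD of a count is a score of assignment uncertainty, 0 for all 10 genes in both libraries. Which aligner and quantifier made them is not given in the sources used. Another 2 deposited tables, on mm9, were not used.

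Names and coordinates came from GENCODE M21, promoter windows from RefSeq. Expected counts were rounded, and genes averaging 20 or more counts were kept, with spike-ins left out. Scaling was by TMM (edgeR 4.0.16 under R 4.3.3), and log2 ratios took a prior count of 1 with a counting SE. Since 1 library stands against 1, edgeR's quasi-likelihood fit has no residual degrees of freedom, and so a two-sided exact binomial test with Benjamini-Hochberg adjustment at 0.05 was used, after it was tested on simulated data. DESeq2 1.42.0 gave alternative size factors. The rest ran in Python 3.11.15 with pandas 2.3.3, scipy 1.17.1, matplotlib 3.10.9 and numpy 2.4.6. Reads carry no molecular identifiers, so SEs and floors cover counting error only.

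The genes and lists were chosen with earlier results of these data known. All 10 genes are named, and of each role of the pathway list the 2 with the highest mean TPM and any gene over 2-fold apart. Alternatives covered the scaling, the counts, the filter, the adjustment, the level and each replicate left out.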

Additional observations from a re-analysis of the deposited data

How the results depend on the processing

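Of the 10 genes, 7 passed the test under TMM, DESeq2 size factors and posterior mean counts, 6 with total-count scaling or no filter, 5 with Bonferroni adjustment and 8 with spike-in scaling. Spike-in scaling turned 5 ratios from above to below 0, to -0.06 for Ccnd1 (exact binomial adjusted p = 0.0473), -0.081 for Cdkn1a (adjusted p = 0.0714), -0.256 for Cdkn2c (adjusted p = 0.000622), -0.406 for Cdkn1b (adjusted p = 1.4e-22) and -0.424 for Cdkn2d (adjusted p = 1.24e-07), because it moves every gene lower. Cdkn1b and Cdkn2d, which did not pass under TMM, also turned below 0 with total-count scaling, at -0.036 and -0.053, and as log2(TPM + 1), at -0.028 and -0.051. Ccnd3 no longer passed with spike-in scaling (0.02, exact binomial adjusted p = 0.447). Bonferroni adjustment left 18 of the pathway genes past the test, against 31. Leaving out a replicate changed the rank of between 0 and 3 genes in the order of levels, with 3 changed, Ccnd2, Cdkn1a and Ccnd1, without replicate 2. With protein-coding transcripts only, Cdk4 held 96.7% of the summed TPM of Cdk4 and Cdk6, against 98.3%, since part of Cdk4 is in other forms. On the same transcripts, an alternative chosen after seeing the data, the mean ratio of D cyclin to kinase TPM was 1.31, against 0.658. That of Cdkn2c and Cdkn2d to kinase TPM was 0.181, against 0.0916. The other 38 checks of counts and shares that answer a comparison stayed within 1.5 times or 1 SD of the value reported. Leaving out 1 of 2 replicates cannot move a mean share by 1 SD, so those checks could not fail. The count with spike-in scaling is among the 38, although its calls went from 4 higher and 3 lower to 0 higher and 8 lower. Of levels and shares of single genes 15 moved by more than 1 SD, the mean of Rb1 to 3.195 posterior mean TPM, against 2.185 TPM. Chosen after seeing the data, the share of start groups was also taken on posterior mean TPM, and Cdkn2b was rescaled to the spike-ins. No paired analysis was possible because the series holds 1 group. Depth limits Rb1, whose counting SE was 0.15, most among the 10 genes.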
